A study of Homo sapiens with 2 samples.

Results

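Integrins, laminins and the proteins of the basement membrane were examined in Ca9-22 cells, an established human oral squamous cell carcinoma (OSCC) line. The 35 genes were chosen by name, as every non-control probe whose gene name was 1 of the listed integrin, laminin, collagen, hemidesmosome, matrix or kindlin symbols, out of 43317 gene names on the array. The rule used names and no measured value, though the list was written with earlier results of these data known. They had 58 probes, and 34 of the 35 genes were detected on both arrays, against 20246 gene names in all. One group (DLEU1 cells) was Ca9-22 cells infected with a lentiviral vector carrying DLEU1, a long noncoding RNA, and the other (control cells) was Ca9-22 infected with a control vector. Both were grown in RPMI-1640 with serum and selected with blasticidin for 2 weeks, so infection and selection were common to both. The DLEU1 insert was a full-length cDNA obtained from another OSCC line, and the labels do not say whether the selected cells were 1 clone or a pool. Total RNA of each group was labelled with Cy3 and put on 1 Agilent expression array.

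Integrins are receptors made of an alpha and a beta subunit that bind matrix outside the cell and the cytoskeleton inside it. Basal cells of a stratified epithelium rest on a basement membrane, a sheet of laminin and collagen IV networks that nidogen, perlecan and agrin hold together. Hemidesmosomes fasten the keratin filaments of these cells to laminin through integrin α6β4, and anchoring fibrils of collagen VII tie the sheet to the connective tissue beneath. In squamous carcinoma these genes are studied for their part in adhesion and invasion.

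With 1 array a group there were no replicates. No test, p-value or SD between cultures could be had, and precision is limited by this number of arrays. A level is the log2 processed signal of a probe minus the 75th percentile of its array, and a difference is DLEU1 vector minus control vector on that log2 scale. A gene was called at a difference of 1 or more either way, which is 2-fold, and took the value of the brightest of its probes that both arrays detected. Levels were not compared between genes, because probes differ in brightness for the same amount of RNA. The spread of replicated spots, 0.0800 as the SD of a log2 difference over 282 probes, covers technical error only, and it was 0.286 over the 6 of these probes with a mean signal under 200. In RNA of whole cultures, a lower value from fewer cells of a kind and from less RNA per cell cannot be told apart.

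The DLEU1 probe of transcript NR_002605 had a level of 3.17 in control cells and 5.91 in DLEU1 cells, 6.67-fold higher. The dimmer DLEU1 probes of NR_109974 had differences of 0.85 and 0.54, or 1.81-fold and 1.46-fold. All 7 squamous epithelial markers were detected on both arrays, so the labelled cell type was met. Of these, 5 (71.4%) were at least 2-fold higher with the DLEU1 vector, where 9.18% of all genes were. They included KRT14 (2.85) and KRT5 (2.10), and EPCAM had a difference of -0.78. The summed signal of the 7 markers was 82084 in control cells and 248763 in DLEU1 cells. A strip of the DLEU1 vector array had lost signal, with 26.8% of lit probes there at least 2-fold lower against 12.0% elsewhere. It held the LAMC1 probe, 1 dim DST probe, and spots of the replicated probes of ITGB1 and of the squamous marker CDH1. Apart from CDH1, it held none of the probes of the genes called at 2-fold below.

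Most of these genes were below 2-fold between the vectors, as were 16407 of all 20246 genes, while a subset of 8 was at least 2-fold higher with the DLEU1 vector. In order of size they were ITGB6, NID1, COL7A1, COL5A1, ITGB8, COL4A5, TGFBI and ITGA1. A single gene, TNC, was at least 2-fold lower, and the other 25 detected genes were below 2-fold. The 8 genes were 23.5% of the 34 detected, where 9.18% of all 20246 genes were called higher. The 1 lower gene was 2.94%, where 9.78% of all genes were called lower. The median difference of the 34 genes was -0.07, and that of all genes was -0.07 also, with a middle 90% from -1.34 to 1.40. Of the 34 genes, 14 had a difference above 0 and 20 below 0. The plot of levels by role sets the arrays side by side for each gene.

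**Figure D1:**
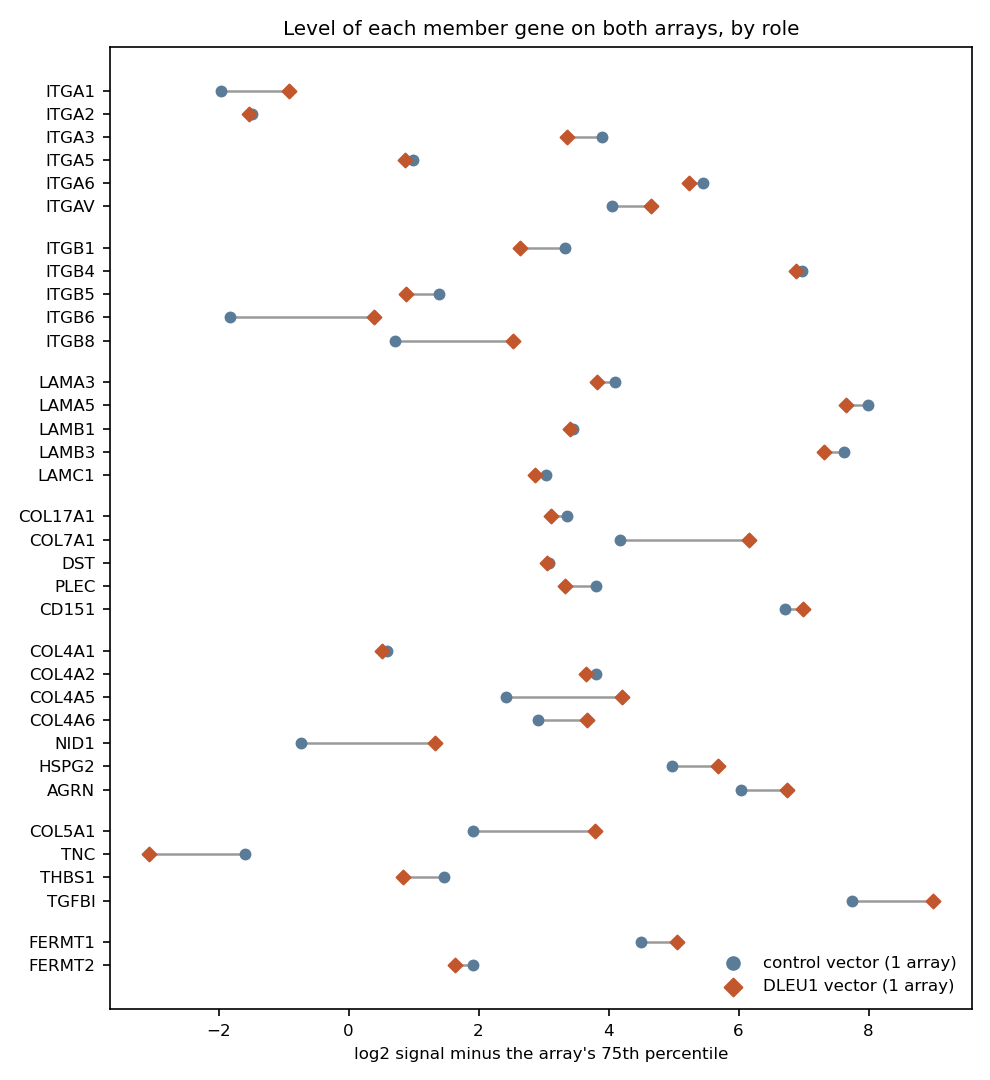
Level of each of the 34 detected genes, as log2 signal minus the 75th percentile of the array, with the control vector (circles) and the DLEU1 vector (diamonds), 1 array each, grouped by role. ITGB6, NID1, COL7A1, COL5A1, ITGB8 and COL4A5 show the longest steps to the right and TNC the longest to the left. Positions on the axis are not comparable between genes.

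Sequences are shown first for the genes on which this pattern turned. ITGB6 and COL7A1 had the highest difference among the integrins and among the hemidesmosome and anchoring fibril genes. Each was read by a single probe of 60 bases that crosses an intron, so that spliced RNA and not genomic DNA matches it whole. The ITGB6 probe (transcript NM_000888) lies on chromosome 2 from 160958330 to 160964233, minus strand, and the COL7A1 probe (NM_000094) on chromosome 3 from 48602401 to 48602588, minus strand, both in hg19. The probes read, 5′ to 3′ as the array files give them:
ITGB6 probe: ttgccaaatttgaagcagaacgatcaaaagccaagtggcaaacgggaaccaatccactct
COL7A1 probe: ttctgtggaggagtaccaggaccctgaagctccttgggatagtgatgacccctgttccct

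The 4 collagen IV genes among the 35 were chosen because they lie in head-to-head pairs that start from a shared stretch of DNA. COL4A5 was the 1 gene of these 4 called at 2-fold, where 9.18% of all genes were called higher. COL4A4, outside the 35, was called higher too. The starts of COL4A1 and COL4A2 have 126 bases between them on chromosome 13, and those of COL4A5 and COL4A6 have 379 on the X chromosome. The stretches below are from RefSeq promoters (GRCh38.p14, plus strand). The first, chr13:110307158-110307283, is the whole interval between the starts, with COL4A1 read leftward and COL4A2 rightward. The second, chrX:108439588-108439837, is the 250 bases before the COL4A5 start, and the COL4A6 start lies to the left of it, outside the stretch shown. Capitals mark the letters GGGCGG, named the GC box, and the letters CCAAT, known by that name, each searched on both strands.
COL4A1-COL4A2: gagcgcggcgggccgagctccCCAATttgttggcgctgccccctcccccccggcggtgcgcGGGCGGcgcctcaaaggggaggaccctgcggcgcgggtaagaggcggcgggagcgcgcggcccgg
COL4A5-COL4A6: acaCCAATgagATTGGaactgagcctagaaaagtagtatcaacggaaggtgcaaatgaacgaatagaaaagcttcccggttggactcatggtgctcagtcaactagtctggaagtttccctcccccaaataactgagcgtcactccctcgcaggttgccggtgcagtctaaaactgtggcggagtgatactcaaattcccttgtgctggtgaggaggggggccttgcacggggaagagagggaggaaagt
The first stretch was 80.2% GC and held 1 GC box and 1 CCAAT box. The second was 51.2% GC and held 0 GC boxes and 2 CCAAT boxes. Of 27305 RefSeq promoters of 300 bases, 44.6% held GGGCGG and 35.7% held CCAAT, so neither motif is rare, and a match is a description of letters only.

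Of the 5 beta subunits, 2 (40%), ITGB6 and ITGB8, were at least 2-fold higher with the DLEU1 vector, where 9.18% of all genes were. The remaining 3 were below 2-fold. ITGB6, whose product pairs with αv in epithelia and can release TGF-β from its latent form, had a level of -1.82 in control cells and 0.39 in DLEU1 cells. Its difference of 2.21, or 4.64-fold, was above that of 98.4% of all genes, although its signal with the control vector was only 68.6 against 310 with the DLEU1 vector. ITGB8, the other αv partner known to activate latent TGF-β, went from a level of 0.72 to 2.54, a difference of 1.82 or 3.52-fold. ITGB1, the common partner of many alpha subunits, was below 2-fold, with levels of 3.32 and 2.64 and a difference of -0.68. Its probe (chromosome 10, 33200507 to 33200566) had 10 spots, whose differences ran from -0.75 to -0.59 with an SD of 0.0526. Part of these spots lay in the strip with lost signal, and the ITGB1 difference was -0.69 without the strip. ITGB5, another αv partner, had a difference of -0.49. ITGB4, the hemidesmosomal subunit, had levels of 6.98 and 6.89 and a difference of -0.09. The median of the 5 beta subunits was -0.09 and lay from -0.55 to 0.18 under the other settings.

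Of the 6 alpha subunits, ITGA1 alone (16.7%) was called, where 9.18% of all genes were called higher. ITGA1, a collagen receptor subunit, had a level of -1.96 in control cells and -0.92 in DLEU1 cells, a difference of 1.04 or 2.06-fold. Its signal was dim on both arrays, 62.4 and 125, and the difference lies just past the threshold. It was under 2-fold with median scaling (0.93), quantile normalization (0.98), spike-in scaling (0.58) and normexp background correction (0.67). ITGA2, a collagen receptor subunit whose probe lies 140328 bases from that of ITGA1 on chromosome 5, had levels of -1.49 and -1.54 and a difference of -0.05. ITGAV, the αv subunit, had levels of 4.06 and 4.65 and a difference of 0.60, or 1.51-fold. It too had 10 spots, with differences from 0.55 to 0.64 and an SD of 0.0261. Over those spots the ITGAV and ITGB1 differences were apart from 0 by many times their spot spread and in opposite directions, which concerns the arrays and not the cultures. Spot spread also leaves out the choice of scaling. Under the other settings ITGAV lay from 0.14 to 0.83 and ITGB1 from -1.14 to -0.52.

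The laminin-binding alpha subunits were below 2-fold. ITGA3, with levels of 3.895 and 3.36, had a difference of -0.53. ITGA6, which pairs with ITGB4 in the hemidesmosome, had a difference of -0.23 by its brighter probe, 0.03 with loess, and -0.31 by the other probe. ITGA5, the fibronectin receptor subunit, had a difference of -0.13. ITGB6, ITGB8, ITGA1 and ITGAV were the only integrin genes of the 11 with a difference above 0 in the reported setting. The median of the 6 alpha subunits was -0.09, from -0.55 to 0.02 under the other settings.

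The 5 laminin chains all had differences below 0 and none was called. LAMB1 was above 0 with loess (0.13), quantile normalization (0.12) and scaling over detected probes (0.07), and LAMA5 with the mean of its probes (0.33). LAMA3 and LAMB3, chains of the laminin that hemidesmosomes bind, had levels of 4.10 and 3.82 for LAMA3 and of 7.63 and 7.31 for LAMB3. Their differences were -0.28 and -0.31. LAMB1 and LAMC1, chains found in most basement membranes, had differences of -0.05 and -0.17, the LAMC1 probe lying in the strip with lost signal. The median of the 5 chains was -0.28, and it stayed below 0 from -0.74 to -0.04 under the 13 other settings.

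LAMA5, the alpha chain of the laminins of mature epithelial basement membranes, was read by a pair of probes that went opposite ways. The brighter one (ENST00000370677, chromosome 20 from 60920556 to 60920615, minus strand) had levels of 7.99 and 7.66, a difference of -0.33. The other (NM_005560, 60885302 to 60885361) had levels of 0.96 and 1.96, a difference of 0.999, which is 1.998-fold and just short of the threshold. The probes lie 35194 bases apart and are assigned to different transcripts, so the value of LAMA5 depends on the probe taken.

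**Figure D2:**
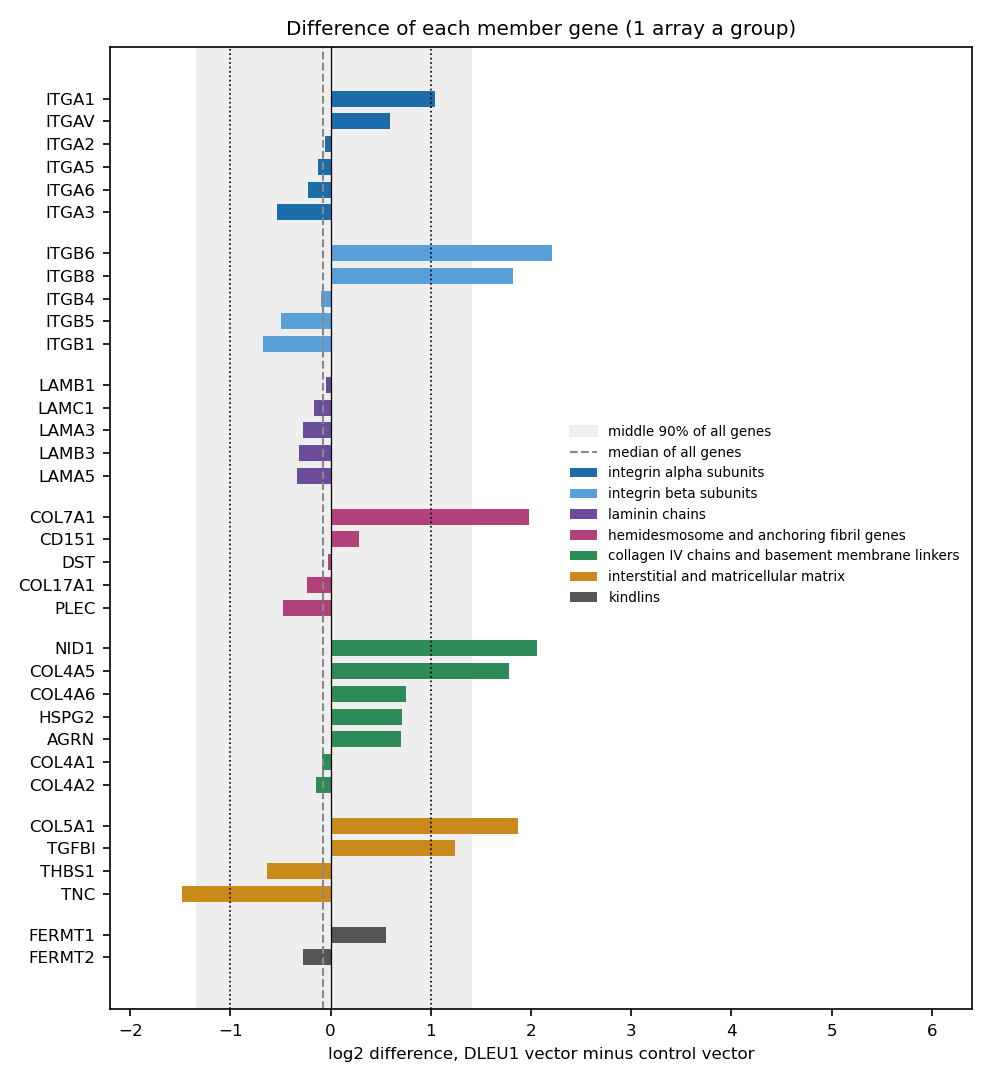
Log2 difference of each detected gene, DLEU1 vector minus control vector, ordered within its role, with 1 array a group and no error bars for lack of replicates. Dotted lines mark 2-fold, grey the middle 90% of all 20246 genes. The 5 laminin chains lie between -0.33 and -0.05, while 5 of the 7 collagen IV and linker genes lie at 0.71 or above.

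Of the 5 hemidesmosome and anchoring fibril genes, COL7A1 alone (20%) was called, where 9.18% of all genes were called higher. The hemidesmosome components were below 2-fold, as were 16407 of all 20246 genes. COL7A1 had a level of 4.18 in control cells and 6.16 in DLEU1 cells, a difference of 1.98 or 3.93-fold, which was above that of 97.8% of all genes. Its signal was 4397 and 16844, bright on both arrays, and its difference was at least 1.51 in each of the 13 other settings. The components COL17A1, DST, PLEC and CD151 had a median of -0.13. COL17A1, the transmembrane collagen of the hemidesmosome, had levels of 3.36 and 3.12 and a difference of -0.24. PLEC (plectin), which links integrin β4 to keratin, had a difference of -0.48 by its brighter probe and -0.81 by its other. CD151, a tetraspanin that associates with laminin-binding integrins, had levels of 6.71 and 6.996 and a difference of 0.29, and -0.17 with spike-in scaling.

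DST, whose epithelial form BPAG1 is a plakin of the hemidesmosome, had 6 probes, of which 5 were detected on both arrays. The 2 probes of NM_001723 had differences of -0.03 and -0.21, and the probes of NM_015548 and ENST00000521821 had -0.13 and -0.32. The probe of NM_001144769, dim and in the strip with lost signal, had 0.71. The sixth was detected with the DLEU1 vector only, at least 1.22-fold higher. The brightest DST probe was above 0 with loess (0.13), and with quantile normalization and scaling over detected probes.

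In the collagen IV network and its linkers, 2 of 7 genes (28.6%) were at least 2-fold higher, where 9.18% of all genes were. None was lower, where 9.78% of all genes were, and the median was 0.72. NID1, whose product nidogen joins laminin to collagen IV, had a level of -0.73 in control cells and 1.33 in DLEU1 cells, a difference of 2.06 or 4.16-fold. Its signal was 146 and 593. HSPG2 (perlecan) had levels of 4.98 and 5.69 and a difference of 0.72. AGRN (agrin) had levels of 6.04 and 6.75 and a difference of 0.71, with 0.81 by a second probe. All of these were above 0 in every setting run, with medians of the 7 genes from 0.25 to 0.97. By their brightest probes, HSPG2 and AGRN were below 2-fold and NID1 was above it. This did not extend to their classes. Outside the 35, NID2, a second nidogen gene, had a difference of 0.20 at a dim signal of 28.1 and 31.4. COL18A1, whose product also carries heparan sulfate, had 1.28.

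Of the 4 collagen IV genes among the 35, COL4A5 alone was called, where 9.18% of all genes were called higher. COL4A4, a collagen IV gene outside the 35, was also called, with a difference of 2.28 at a signal of 31.2 and 148. COL4A3, also outside them, was not well above background on either array. COL4A5 had a level of 2.42 in control cells and 4.20 in DLEU1 cells, a difference of 1.78 or 3.43-fold. Its neighbour COL4A6 had levels of 2.92 and 3.67 and a difference of 0.75 by its brighter probe. The chains of COL4A5 and COL4A6 are found together in epithelial basement membranes, while those of COL4A1 and COL4A2 are widespread. COL4A1 had levels of 0.59 and 0.51 and a difference of -0.08, and COL4A2 had levels of 3.81 and 3.66 and a difference of -0.15. COL4A1 was slightly above 0 with scaling over detected probes (0.03), and COL4A2 with loess (0.05) and quantile normalization (0.04). COL4A5 and COL4A6 each had a higher difference than COL4A1 and COL4A2 in the 13 other settings too, the lowest for COL4A6 being 0.06 as the mean of its probes.

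COL4A6 and HSPG2 had probes that differed by over 1. The second COL4A6 probe (ENST00000461897, chromosome X from 107512310 to 107512369) had levels of -1.85 and -2.49, a difference of -0.63. The brightest HSPG2 probe lies on chromosome 1 from 22148740 to 22148799, and the others detected on both arrays had differences of 0.42 (NM_005529) and 1.70 (NM_001291860). These other probes were dim, with levels under -1.6 on both arrays. Altogether 13 of the 35 genes had several probes detected on both arrays. In 9 of these the probes lay within 0.5 of each other, in 10 they had one sign, and in 4 (COL4A6, LAMA5, HSPG2 and DST) they spread over more than 1. A further 21 genes had a single probe on the array, including ITGB6, ITGB8, COL7A1, COL4A5, NID1, TGFBI, ITGA1 and TNC.

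**Figure D3:**
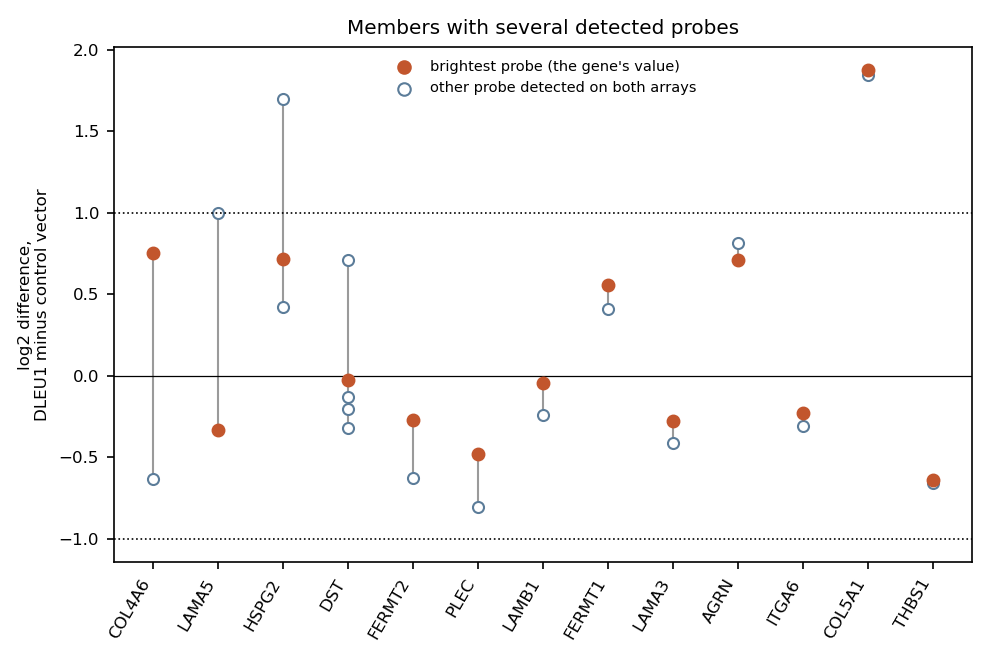
Log2 difference of every probe detected on both arrays for the 13 genes with several such probes, with the brightest probe filled and the others open, ordered by spread. COL4A6, LAMA5, HSPG2 and DST spread over more than 1, and the COL5A1 probes agree at 1.87 and 1.84.

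Among the interstitial and matricellular genes, collagen V and TGFBI were higher and tenascin-C was lower. COL5A1, the alpha1 chain of collagen V that nucleates collagen I fibrils, had levels of 1.92 and 3.79, a difference of 1.87 or 3.66-fold, and 1.84 by a second probe of the same transcript. A further COL5A1 probe was detected with the DLEU1 vector only, at least 1.27-fold higher. Such a bound takes the lowest signal well above background, or the dim probe's own, for the array on which the probe was not detected. TGFBI, a secreted integrin ligand named for its induction by TGF-β, had levels of 7.75 and 8.99 and a difference of 1.24 or 2.36-fold. Its signal was 52054 and 119902, with no saturated spot, and its difference was 0.78 with spike-in scaling.

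TNC, a matricellular protein found in tumour stroma and at wound edges, had a level of -1.59 in control cells and -3.07 in DLEU1 cells. The difference of -1.48, or 2.79-fold lower, rested on dim signal, 80.6 and 28.2, and it was -0.60 with normexp background correction. THBS1, a secreted activator of latent TGF-β, had levels of 1.47 and 0.83 and differences of -0.64 and -0.66 by its probes. FN1 was the gene not detected. Its only probe (NM_054034, a short transcript, chromosome 2 from 216288217 to 216288895) had signals of 3.26 and 3.19, not well above background on either array. It therefore gives no value for the other fibronectin transcripts.

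Fibroblast markers were set beside collagen V, a product of fibroblasts. Of 7 such markers, COL1A1 had levels of 0.47 and 4.47 (3.99) and PDGFRB had a difference of -0.33. LUM was detected with the DLEU1 vector only, and COL1A2, COL3A1, DCN and PDGFRA were not well above background on either array. The summed signal of the list was 378 in control cells and 5297 in DLEU1 cells, of which COL1A1 gave 337 and 5217. Of 8 endothelial and leukocyte markers, 5 were detected on both arrays, and PECAM1, KDR and CD3E on neither. VWF had differences of 3.70 and -0.07 by its detected probes, and the summed signal was 413 and 899. Of the 7 squamous markers, 5 (71.4%) were at least 2-fold higher, where 9.18% of all genes were, while TP63 (0.96) and EPCAM (-0.78) were below 2-fold. With 1 array a group, it could not be seen whether these markers vary together with the genes called higher. The part of these marker lists in the differences was not tested.

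The kindlins, which bind beta subunit tails and switch integrins on, were below 2-fold. FERMT1, the epithelial kindlin, had levels of 4.49 and 5.05 and differences of 0.55 and 0.41 by its probes. FERMT2, the widely expressed one, had levels of 1.91 and 1.64 and differences of -0.27 and -0.63.

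Genes related to these were taken from companion lists, in which all genes called at 2-fold are named here, up to 3 each way. A list of 15 genes held other integrins and ITGB1BP1, an integrin-binding protein. Of these, 10 were detected on both arrays, with 1 higher (10%), 2 lower (20%) and a median of -0.59, where 9.18% and 9.78% of all genes were called. ITGA9, dim on both arrays, had a difference of 1.04. ITGB1BP1, which binds the ITGB1 tail, had a difference of -1.43 by its brighter probe and -0.59 by the other. ITGAX, a leukocyte subunit, had -1.04. ITGB2, the leukocyte beta subunit, was detected in control cells only, with signals of 159 and 4.33 by its brighter probe, at least 10.8-fold lower in DLEU1 cells. Its other probe was not well above background on either array, and ITGB2 was named after its values were seen. Of 18 other laminin and basement membrane genes, 13 were detected on both, with 3 higher (23.1%), 1 lower (7.69%) and a median of 0.40, from -0.06 to 0.55 under the other settings. COL4A4 had a difference of 2.28 at a signal of 31.2 and 148, LAMB2 had 1.39 and 1.64 by its probes, COL18A1 had 1.28, and LAMA2 had -1.79 at a signal of 107.4 and 30.3.

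The integrin adaptors and focal adhesion genes had 2 of 19 detected genes higher (10.5%, near the 9.18% of all genes) and 0 lower, with a median of -0.04. Both called genes were tensins, which bind beta subunit tails. TNS3 had levels of 3.47 and 5.38 and a difference of 1.91, and TNS4 had levels of 4.58 and 6.00 and a difference of 1.41. Of 10 detected genes of matrix processing and crosslinking, 1 was higher (10%) and 0 were lower, with a median of -0.02. It was BMP1, the procollagen C-proteinase that also processes laminin and collagen VII, with levels of -0.83 and 0.96 and a difference of 1.79. Of 8 tetraspanins, all detected, 0 were higher and 1 (12.5%, near the 9.78% of all genes) was lower. TSPAN4 had differences of -1.37 and -1.45 by its probes, and the median was 0.08.

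**Figure D4:**
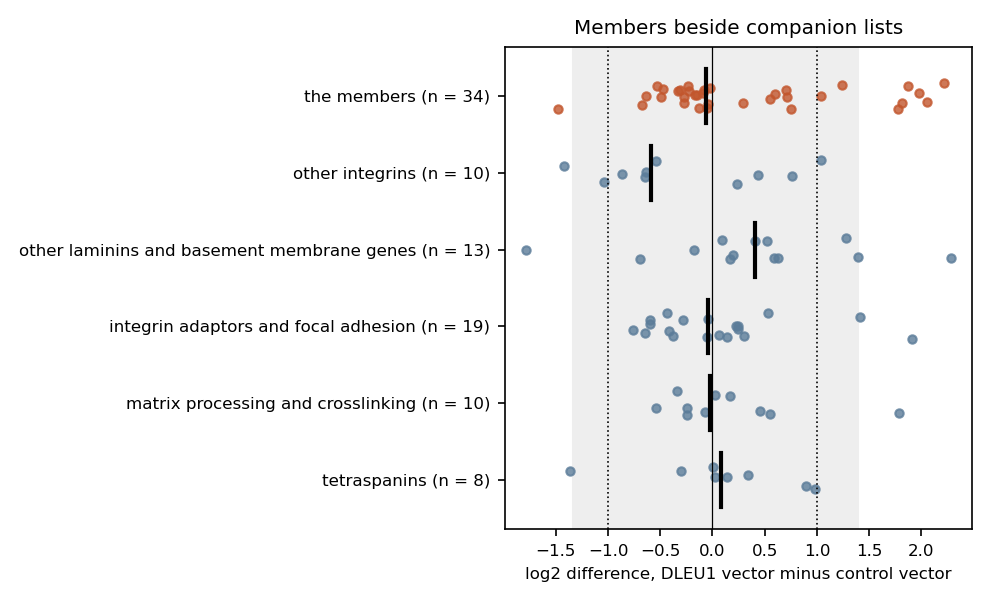
Log2 difference of every gene detected on both arrays, DLEU1 vector minus control vector, for the members and 5 companion lists, each point 1 gene and each black bar the list's median. Dotted lines mark 2-fold and grey the middle 90% of all genes. The medians run from -0.59 for the other integrins to 0.40 for the other laminin and basement membrane genes.

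Promoters of these genes were searched for TGANTCA, the core letters of AP-1 type sites, on both strands of the 300 bases around each start. RefSeq held a promoter for 29 of the 35 genes. The letters were in 3 of the 29 (10.3%), against 7.76% of all 27305 promoters, and in 0 of the 8 genes called higher. No match says only that these letters are not in this window.

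The called genes were followed through 13 other settings that kept the 2-fold threshold. ITGB6, ITGB8, COL7A1, COL4A5, NID1 and COL5A1 were at least 2-fold higher in each setting that gave a value, the lowest being 1.32 for COL4A5 with spike-in scaling. ITGB6 was lowest with normexp, at 1.501, and gave no value under a signal minimum of 100. ITGA1, TGFBI and TNC lost the call under the settings named beside them, and none of the 9 called genes changed sign. The plot of the called genes under other settings gives each value.

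**Figure D5:**
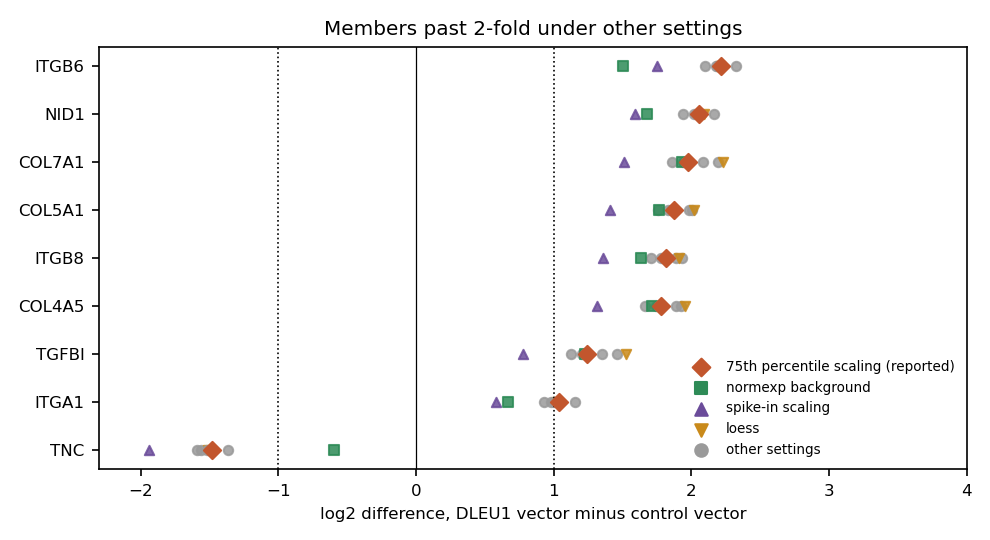
Log2 difference of the 9 called genes under the reported setting (diamonds) and 13 others, with normexp background correction (squares), spike-in scaling (triangles up) and loess (triangles down) marked. Dotted lines mark 2-fold. The upper 6 genes stay at 1.32 or above, TGFBI and ITGA1 cross under the line with spike-in scaling, and TNC crosses it with normexp.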

How the data were processed

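Total RNA (100 ng) of Ca9-22 cells with a control or a DLEU1 vector was measured on 1 Agilent array each, which shared a slide and a scan. The deposited files held intensity values made with Feature Extraction 10.7.3.1. Per the file headers, local background had been removed and dim spots carried a surrogate value. The authors used GeneSpring, and did not normalize the deposited signal between arrays. Probe positions were on hg19. Of 62976 spots, control spots and outlier spots (84 and 103) were left out, the log2 processed signal was averaged per probe, and the 75th percentile of each array (7.92 and 7.88) was subtracted. A probe was detected where most of its spots were well above background, as 47.6% and 48.1% of 58201 probes were. This filter leaves out genes at very low signal, and a surrogate value understates the difference of a dim probe.

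No test was possible with 1 array a group. All 35 members, and the companion genes called at 2-fold up to 3 each way, were named, with probe values where probes differed by over 1. Members and lists were chosen with earlier results of these data known, so they are no independent support. The scripts were tested on simulated data. Alternatives were median, detected-probe, quantile, loess (span 0.3), spike-in and no scaling, normexp (limma 3.58.1, R 4.3.3, offset 50), other filters on dim probes, the mean of probes, the series values, leaving out the strip (rows 1 to 127, columns 32 to 47, located after seeing the data), and thresholds of 1.5-fold and 3-fold. The authors' series values held the same intensity, within 0.497%. Promoters came from RefSeq on GRCh38.p14, and other work used Python 3.11.15, numpy 2.4.6 and pandas 2.3.3.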

Additional observations from a re-analysis of the deposited data

How the results depend on the processing

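The count of genes at least 2-fold higher was 8, and stayed within 1.5 times of it under every alternative run, from 6 with spike-in scaling to 12 at a 1.5-fold threshold. The count of lower genes was 1, became 3 with spike-in scaling (which added ITGB1 and THBS1) and at a 1.5-fold threshold, and became 0 with normexp, with a minimum signal of 100 and at a 3-fold threshold. The median difference of the 34 genes was -0.18 with median scaling, 0.046 with scaling over detected probes, 0.064 with quantile normalization, 0.093 with loess and -0.53 with spike-in scaling. The median of all genes moved with it, to -0.18, 0.041, -0.03, 0.0085 and -0.53. The share of all genes called also changed with the setting, so these counts do not stand against a fixed share. Spike-in scaling put 4.57% of all genes higher and 23.99% lower, where the reported setting gave 9.18% and 9.78%. The 1.5-fold threshold put 18.4% of all genes higher and 22.0% lower, and the 3-fold threshold 3.82% and 3.31%. Normexp put 5.54% higher and 6.98% lower, and a minimum signal of 100 put 7.27% and 10.2%. Among the genes below 2-fold, 9 changed sign in at least 1 setting, from reported values between -0.33 and 0.29. Signal over background limits ITGA1, ITGA2, ITGB6 and TNC, which had no value at a signal minimum of 100. LAMC1 had none without the strip. No paired analysis was possible because each group had 1 array and the labels gave no replicate numbers.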
